A study of Mus musculus with 37 samples.

Results

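The MHC class I and Qa-1 genes of uterine NK (uNK) cells were followed here in every library of the series. The set was chosen by name, with earlier results of these data known, and holds 10 of the 53700 genes counted. These are the classical heavy chains H2-K1 and H2-D1 and the Q region genes H2-Q4, H2-Q5, H2-Q6 and H2-Q7. The others are the T region genes H2-T22 and H2-T23, the light chain B2m and the peptide transporter subunit Tap1. All 10 were measured in each of the 37 libraries and all 10 passed the filter on low counts in each comparison.

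Each library was made from the bulk RNA of uNK cells, taken by sorting from pregnant uteri of C57BL6 mice between gestation day 9.5 and 10.5. Live cells that were CD45+ and NKp46+ and negative for lineage markers that include CD3, CD4, CD8 and high CD11b were divided by Ly49C/I and NKG2A, and double positive cells were not collected. From WT mice there were 9 libraries of Ly49C/I- NKG2A- cells, which the study calls uneducated, 9 of Ly49C/I- NKG2A+ cells and 6 of Ly49C/I+ NKG2A- cells. From NKG2A KO mice of the same strain there were 8 libraries of uneducated cells and 5 of Ly49C/I+ cells. No treatment was given, the animals' age is not stated in the labels, and the sources used here do not say how the KO allele was made. The labels do not say whether libraries came from separate mice, so p-values measure the spread between these libraries, which may be technical. Between 13287163 and 18875033 reads were counted on genes per library (median 17273311), and between 13982 and 17859 genes were detected.

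An MHC class I molecule is a heavy chain paired with the light chain beta-2 microglobulin, the product of B2m, and it carries a peptide that the TAP transporter moved into the endoplasmic reticulum. NK cells read these molecules with inhibitory receptors: Ly49C and Ly49I bind the classical molecule encoded by H2-K1 in this strain, and the CD94/NKG2A receptor binds Qa-1, encoded by H2-T23, which presents peptides from the leaders of other class I heavy chains. NK cells that carry such a receptor for a class I molecule of their own host become more responsive, which is called education, and NK cells display class I molecules themselves. The genes below are thus the cells' own copies of the ligands of the sorted receptors.

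In the GENCODE M21 annotation of GRCm38, 9 of the 10 genes lie on chromosome 17. H2-K1 (ENSMUSG00000061232) spans chr17:33996017-34000347 on the minus strand and Tap1 (ENSMUSG00000037321) spans chr17:34187553-34197225 on the plus strand. H2-D1 (ENSMUSG00000073411) lies at chr17:35262730-35267499, H2-Q4 (ENSMUSG00000035929) at chr17:35379617-35385290, H2-Q5 (ENSMUSG00000055413) at chr17:35394126-35397800, H2-Q6 (ENSMUSG00000073409) at chr17:35424850-35430055 and H2-Q7 (ENSMUSG00000060550) at chr17:35439155-35443773, all on the plus strand. H2-T23 (ENSMUSG00000067212) at chr17:36029773-36032855 and H2-T22 (ENSMUSG00000056116) at chr17:36037128-36042747 are on the minus strand. B2m (ENSMUSG00000060802) is on chromosome 2, at chr2:122147686-122153083 on the plus strand. The annotation gives H2-Q5 as a polymorphic pseudogene and the others as protein coding.

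Class I promoters are known for a shared upstream block that NF-kB and interferon regulatory factors (IRF) bind, followed by X and Y boxes that NLRC5 acts through. RefSeq windows of GRCm38.p6, from 250 bases before to 50 bases after the start, were found for 9 of the 10 genes, and H2-Q5 had no entry. The 28 bases that end at the first IRF match of each heavy chain are shown. They are nearly the same in the classical and Q region genes and differ in the T region genes. In H2-D1 and H2-T23 this block lies before the RefSeq start but within the GENCODE span given above, as the annotations place the start differently. Capitals mark matches to GGGATTCCC (NF-kB), to AANNGAAA (IRF, here in its reverse form) and, in H2-T22, to CCAAT.
H2-K1, chr17:34000430-34000457, minus strand: GGGATTCCCcatctccacagTTTCACTT
H2-D1, chr17:35262924-35262951, plus strand: GGGATTCCCcatctcctcagTTTCACTT
H2-Q4, chr17:35379444-35379471, plus strand: gggatttcccatctccccagTTTCACTT
H2-Q6, chr17:35424678-35424705, plus strand: GGGATTCCCcatctccccagTTTCACTT
H2-Q7, chr17:35439022-35439049, plus strand: gGGGATTCCCatctccccagTTTCACTT
H2-T22, chr17:36042926-36042953, minus strand: agagtccctaATTGGcttagTTTCACTT
H2-T23, chr17:36032818-36032845, minus strand: atgaaaagggatcctactgcTTTCTCTT

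GGGATTCCC, on either strand, was held by 4 of the 9 windows (H2-K1, H2-D1, H2-Q6 and H2-Q7) and by 0.353% of all 32851 RefSeq windows of the same length. AANNGAAA was in 8 of 9, all but Tap1, against 23.9% of all windows. TGATGAC, the X2 box, was in 5 of 9 (H2-D1, H2-Q4, H2-Q6, H2-Q7 and H2-T22) against 3.23%, and CCAAT, the core of the Y box, was in 9 of 9 against 37.4%. The motifs do not contain each other. They were taken from what is known of class I promoters, and the classical and Q region blocks are nearly the same. The matches in the 9 windows are thus not independent, and their shares describe these genes without testing them. Only exact matches were counted, so a window without a match can still hold a variant of the element. These matches are letters in a window and were not tested as binding sites.

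The 250 bases before the RefSeq start are given in full for a Q region gene, the Qa-1 gene, the light chain and the transporter. Capitals mark the same motifs on either strand.
H2-Q7, chr17:35438905-35439154, plus strand: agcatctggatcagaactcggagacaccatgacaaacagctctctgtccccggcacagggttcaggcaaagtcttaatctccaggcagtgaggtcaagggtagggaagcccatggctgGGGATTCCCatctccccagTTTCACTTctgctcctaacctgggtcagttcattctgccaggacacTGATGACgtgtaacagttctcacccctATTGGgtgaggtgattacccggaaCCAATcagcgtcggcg
H2-T23, chr17:36032702-36032951, minus strand: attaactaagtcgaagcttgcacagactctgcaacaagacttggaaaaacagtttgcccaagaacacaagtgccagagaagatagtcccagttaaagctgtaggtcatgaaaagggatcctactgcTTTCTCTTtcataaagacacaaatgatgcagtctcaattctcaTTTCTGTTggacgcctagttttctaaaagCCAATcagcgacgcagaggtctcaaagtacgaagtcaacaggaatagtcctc
B2m, chr2:122147437-122147686, plus strand: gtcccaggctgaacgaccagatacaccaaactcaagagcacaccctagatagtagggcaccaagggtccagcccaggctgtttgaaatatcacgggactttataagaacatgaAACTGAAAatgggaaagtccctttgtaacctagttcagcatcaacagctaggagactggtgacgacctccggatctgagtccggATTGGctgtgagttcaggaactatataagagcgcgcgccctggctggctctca
Tap1, chr17:34187306-34187555, plus strand: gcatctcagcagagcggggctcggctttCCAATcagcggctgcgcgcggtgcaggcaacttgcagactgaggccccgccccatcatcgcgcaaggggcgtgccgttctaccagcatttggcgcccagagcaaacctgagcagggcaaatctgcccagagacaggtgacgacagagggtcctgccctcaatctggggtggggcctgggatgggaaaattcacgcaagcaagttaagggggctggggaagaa

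**Figure D1:**
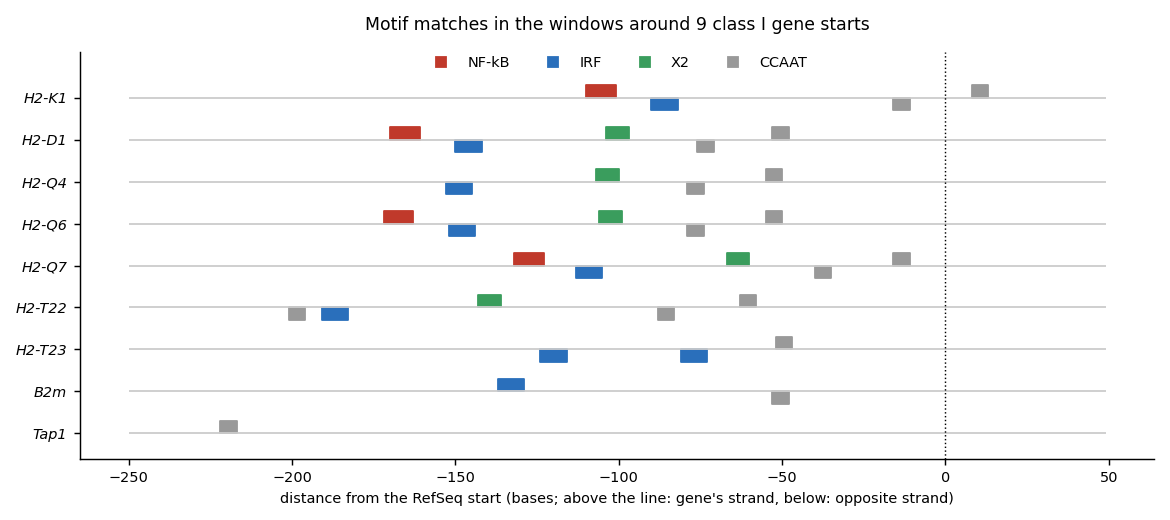
Matches to the 4 motifs in the windows around 9 class I gene starts, by distance from the RefSeq start in bases; boxes above a line are on the gene's strand and boxes below on the opposite strand. In H2-K1, H2-D1, H2-Q6 and H2-Q7 the NF-kB match is followed by an IRF match, while Tap1 has a single CCAAT match.

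Class I genes are alike in sequence, so the share of each gene's 50-base stretches that also occur in transcripts of another gene was counted. It was 0% in B2m, 3.33% in Tap1, 9.63% in H2-K1, 12.77% in H2-D1 and 14.49% in H2-T23. It was higher in H2-Q7 (26.45%), H2-Q6 (34.97%), H2-Q4 (36.39%) and H2-Q5 (36.45%, of which H2-Q7 held the most), and highest in H2-T22 (53.52%, mostly H2-T10 and the antisense transcript A930015D03Rik). Exons of H2-Q4 overlap the antisense gene Gm11131, those of H2-T22 overlap A930015D03Rik and those of Tap1 overlap Psmb9. Ambiguous reads and reads with no unique position were counted apart from the genes, so reads of shared or overlapping stretches may be missing here. The sources used here name neither the counting program nor its use of strand. The values of single Q region genes and of H2-T22 are thus uncertain, and how reads of overlapping antisense partners were counted is not known.

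The 10 genes together took between 1.28% and 2.29% of all reads counted on genes. The share ran from 1.28% to 1.86% in WT uneducated, from 1.56% to 2.09% in NKG2A KO uneducated, from 1.85% to 2.16% in NKG2A+, from 1.75% to 2.24% in WT Ly49C/I+ and from 2.10% to 2.29% in NKG2A KO Ly49C/I+ libraries. Divided by the length of exons, the mean level over the 37 libraries was highest for B2m at 5618 CPM per kb, followed by H2-D1 at 2893 and H2-K1 at 1656. The Qa-1 gene H2-T23 came next at 189 CPM per kb, above H2-Q5 (90.8), H2-Q7 (72.8), H2-Q6 (68.0), Tap1 (63.1), H2-T22 (44.8) and H2-Q4 (4.47). The order B2m, H2-D1, H2-K1, H2-T23 held in all 37 libraries, as did the place of H2-Q4 below H2-T22. In the middle, H2-Q5 exceeded H2-Q7 in 33 libraries and H2-Q7 exceeded H2-Q6 in 32, so most but not all kept that order. H2-Q6 exceeded Tap1 in 22, so by length of exons H2-Q6 and Tap1 had no steady order. Tap1 exceeded H2-T22 in 36 libraries. The middle of this order depends on the length used. Per kb of the longest protein-coding transcript, which H2-Q5 lacks, the WT uneducated means were 138 CPM per kb for H2-Q7, 101 for Tap1, 68.6 for H2-T22 and 45.4 for H2-Q6, and H2-Q6 had the lowest mean of these 4 genes in each of the 5 groups. By that length B2m, H2-D1, H2-K1 and H2-T23 kept their order in WT uneducated cells, at 5387, 2996, 2477 and 294 CPM per kb.

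**Figure D2:**
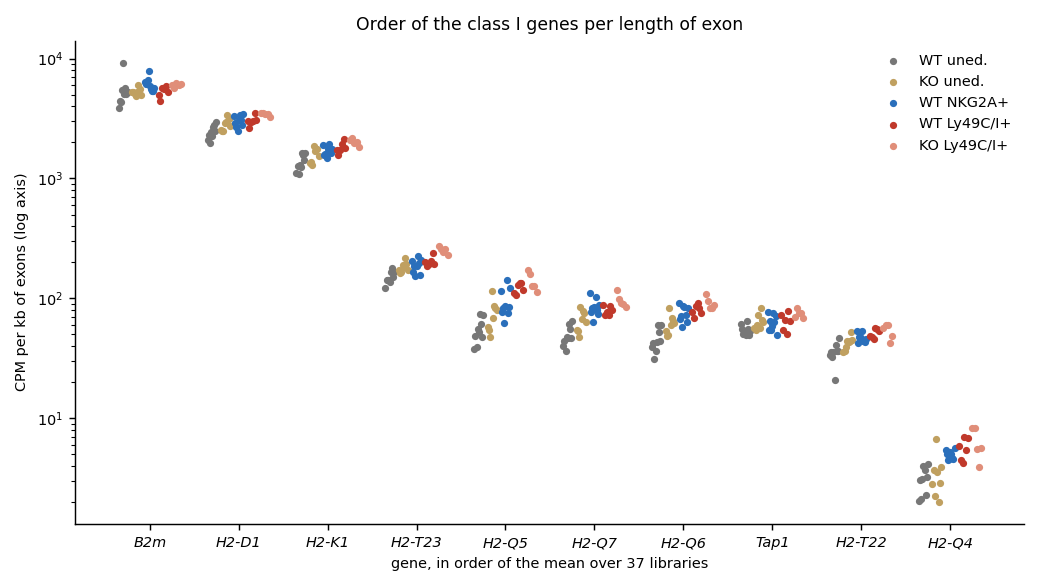
CPM per kb of exons (log axis) of the 10 genes in each of the 37 libraries, coloured by group and ordered by the mean. B2m, H2-D1 and H2-K1 lie above H2-T23 in every library, and H2-Q4 lies below all the others.

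The question of the WT comparisons was how cells that carry a receptor for self class I differ from cells with neither receptor. All 8 heavy chain genes were higher in NKG2A+ than in uneducated cells, and all 8 were also higher in Ly49C/I+ than in uneducated cells, while B2m and Tap1 passed the test in neither. The increases were about 1.2-fold to 1.3-fold for H2-K1, H2-D1 and H2-T23 and between 1.6-fold and 2.2-fold for the Q region genes. Each difference was fitted across all genes by edgeR's quasi-likelihood method with Benjamini-Hochberg adjustment, and a call means an adjusted p below 0.05. In NKG2A+ cells 8 of the 10 genes were called, all higher, where 15% of the 9339 genes tested were called and 7.47% were called higher. In WT Ly49C/I+ cells 8 of 10 were called, all higher, where 9.3% of the 9292 genes tested were called and 4.25% were called higher. Both comparisons share the 9 uneducated libraries.

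**Figure D3:**
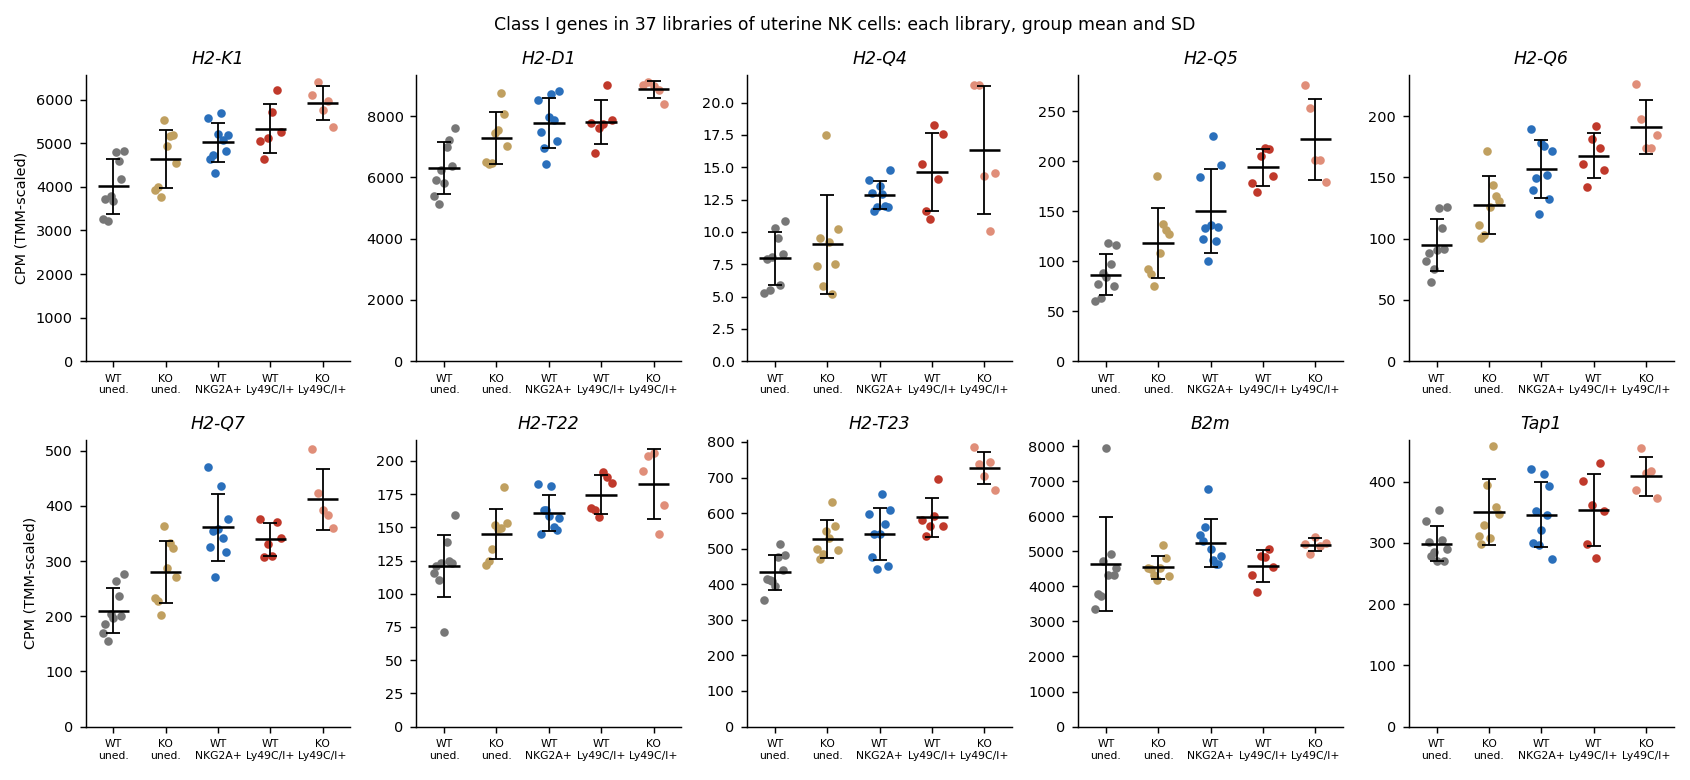
CPM of each gene in every library (points) by group, with the group mean (bar) and SD (whiskers); every axis starts at 0. For H2-Q5, the 6 WT Ly49C/I+ libraries lie above the 9 WT uneducated ones, and for B2m the WT uneducated library at 7953 CPM stands apart from the rest of its group.

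H2-K1, whose product is a ligand of Ly49C and Ly49I, ran from 3209 to 4818 CPM in WT uneducated libraries (median 3791). It ran from 4318 to 5686 CPM in NKG2A+ libraries (median 5064) and from 4636 to 6227 CPM in WT Ly49C/I+ libraries (median 5194). The educated groups were shifted upwards, but the lowest libraries of each overlapped the highest uneducated ones. The mean rose from 4010 ± 624 (SD, n = 9) to 5026 ± 446 CPM (n = 9) in NKG2A+ cells. The log2 fold change there was 0.33 ± 0.09 (SE) with an edgeR adjusted p of 0.0122. In Ly49C/I+ cells the log2 fold change was 0.40 ± 0.10, with an edgeR adjusted p of 0.0175, which became 0.0523 without Ly49C/I+ library 7 and ranged from 0.00151 to 0.0552 over all alternatives.

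H2-D1, the other classical heavy chain of this strain, ran from 5120 to 7622 CPM in WT uneducated libraries (median 6253). It reached 6435 to 8816 CPM in NKG2A+ libraries (median 7881) and 6803 to 9021 CPM in Ly49C/I+ libraries (median 7760). Both educated groups again overlapped the uneducated range in part. The log2 fold change was 0.31 ± 0.08 in NKG2A+ cells (edgeR adjusted p = 0.0147) and 0.30 ± 0.09 in Ly49C/I+ cells (edgeR adjusted p = 0.0406). The second call was lost when uneducated library 1, 2, 3, 4 or 8 or Ly49C/I+ library 1, 4, 5, 7 or 8 was left out, with edgeR adjusted p between 0.0597 and 0.108 (0.00553 to 0.116 over all alternatives).

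The Q region genes, which encode Qa-2 molecules and their relatives, differed most. H2-Q5 ran from 60.1 to 118 CPM in WT uneducated libraries (median 83.7), from 99.9 to 225 CPM in NKG2A+ libraries (median 134) and from 169 to 213 CPM in Ly49C/I+ libraries (median 195). No WT Ly49C/I+ library came as low as any uneducated one, and the log2 fold change of 1.15 ± 0.14 (edgeR adjusted p = 3.02e-04) placed H2-Q5 at rank 4 of all genes tested by p. In NKG2A+ cells its log2 fold change was 0.80 ± 0.16 (edgeR adjusted p = 0.0017).

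H2-Q7 ran from 155 to 277 CPM in WT uneducated libraries (median 201), from 272 to 471 CPM in NKG2A+ libraries (median 355) and from 307 to 376 CPM in Ly49C/I+ libraries (median 336). A single NKG2A+ library, at 272 CPM, fell within the uneducated range, and no Ly49C/I+ library did. The log2 fold changes were 0.79 ± 0.12 in NKG2A+ cells (edgeR adjusted p = 9.41e-05) and 0.68 ± 0.12 in Ly49C/I+ cells (edgeR adjusted p = 0.00229). H2-Q6 rose by a log2 fold change of 0.73 ± 0.13 in NKG2A+ cells (edgeR adjusted p = 4.47e-04) and 0.81 ± 0.14 in Ly49C/I+ cells (edgeR adjusted p = 0.00196).

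H2-Q4 was low, with means of 7.97 ± 2.05 CPM in WT uneducated, 12.9 ± 1.08 in NKG2A+ and 14.6 ± 3.01 in Ly49C/I+ libraries. Its lowest WT educated library, at 11.0 CPM, lay just above its highest WT uneducated library, at 10.8 CPM, and the log2 fold changes were 0.70 ± 0.20 (edgeR adjusted p = 0.0195) and 0.87 ± 0.25 (edgeR adjusted p = 0.036). The call in Ly49C/I+ cells was lost when uneducated library 1, 2, 3, 4, 7 or 8 or Ly49C/I+ library 1, 5, 7 or 8 was left out, with edgeR adjusted p between 0.0559 and 0.0741 (0.00628 to 0.086 over all alternatives). Across the 10 genes, groups did not overlap for H2-Q4 alone in NKG2A+ cells, as for 1.25% of genes tested in that direction. They did not overlap for H2-Q4, H2-Q5, H2-Q6, H2-Q7 and H2-T23 in WT Ly49C/I+ cells, as for 1.27% of genes.

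Because Q region genes share stretches of sequence, their 4 values were also added, a sum chosen after the values were seen and not tested. The sum ran from 288 to 530 CPM in WT uneducated, from 504 to 859 CPM in NKG2A+ and from 630 to 771 CPM in WT Ly49C/I+ libraries. Per 100 reads of H2-K1 and H2-D1 in the same library, the 4 genes had 3.46 to 4.37 reads in WT uneducated, 4.69 to 6.09 in NKG2A+ and 5.06 to 5.71 in WT Ly49C/I+ libraries, so that neither WT educated group overlapped the WT uneducated group. In KO mice the ranges overlapped, with 3.78 to 5.68 reads in uneducated and 5.18 to 6.78 in Ly49C/I+ libraries.

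H2-T23, the Qa-1 heavy chain that CD94/NKG2A binds, ran from 354 to 514 CPM in WT uneducated libraries (median 414). It ran from 443 to 653 CPM in NKG2A+ libraries (median 542) and from 534 to 695 CPM in Ly49C/I+ libraries (median 572). NKG2A+ libraries overlapped the uneducated range, whereas the Ly49C/I+ libraries all lay above it. The log2 fold change was 0.33 ± 0.09 in NKG2A+ cells (edgeR adjusted p = 0.0139) and 0.43 ± 0.09 in Ly49C/I+ cells (edgeR adjusted p = 0.00654). Per 100 reads of H2-K1 and H2-D1, H2-T23 had a median of 4.16 reads in uneducated, 4.24 in NKG2A+ and 4.47 in WT Ly49C/I+ libraries, with ranges that overlapped.

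H2-T22, a T region molecule known as a ligand of some gamma delta T cell receptors, had means of 121 ± 23.5 CPM in WT uneducated, 161 ± 13.5 in NKG2A+ and 175 ± 14.7 in Ly49C/I+ libraries. Its log2 fold changes were 0.42 ± 0.11 (edgeR adjusted p = 0.0123) and 0.52 ± 0.13 (edgeR adjusted p = 0.0164, and 0.059 with no filter on low counts, the highest over all alternatives). The lowest value of all, 71.3 CPM, was in WT uneducated library 5.

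B2m ran from 3352 to 7953 CPM in WT uneducated libraries (median 4334), from 4646 to 6797 CPM in NKG2A+ libraries (median 5057) and from 3844 to 5063 CPM in WT Ly49C/I+ libraries (median 4699). Library 5 of the uneducated group, whose description line repeats the name of library 4, was highest by far and the next was at 4930 CPM. With it, the log2 fold change in NKG2A+ cells was 0.19 ± 0.12 (edgeR adjusted p = 0.352). Without it, the value was 0.32 (edgeR adjusted p = 0.0117), and with number 5 of both groups left out it was also 0.32 (edgeR adjusted p = 0.017). Under the other alternatives B2m did not pass, with an adjusted p of up to 0.528, so the call for the light chain in NKG2A+ cells rested on that library. In Ly49C/I+ cells the log2 fold change was -0.03 ± 0.14 (edgeR adjusted p = 0.944), and 0.12 (edgeR adjusted p = 0.407, with up to 0.995 over all alternatives) without library 5.

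Tap1 ran from 271 to 354 CPM in WT uneducated libraries (median 291), from 273 to 422 CPM in NKG2A+ libraries (median 346) and from 276 to 430 CPM in Ly49C/I+ libraries (median 357). The 3 groups began at nearly the same level and overlapped. The log2 fold change was 0.22 ± 0.09 in NKG2A+ cells (edgeR adjusted p = 0.108) and 0.23 ± 0.10 in Ly49C/I+ cells (edgeR adjusted p = 0.159).

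**Figure D4:**
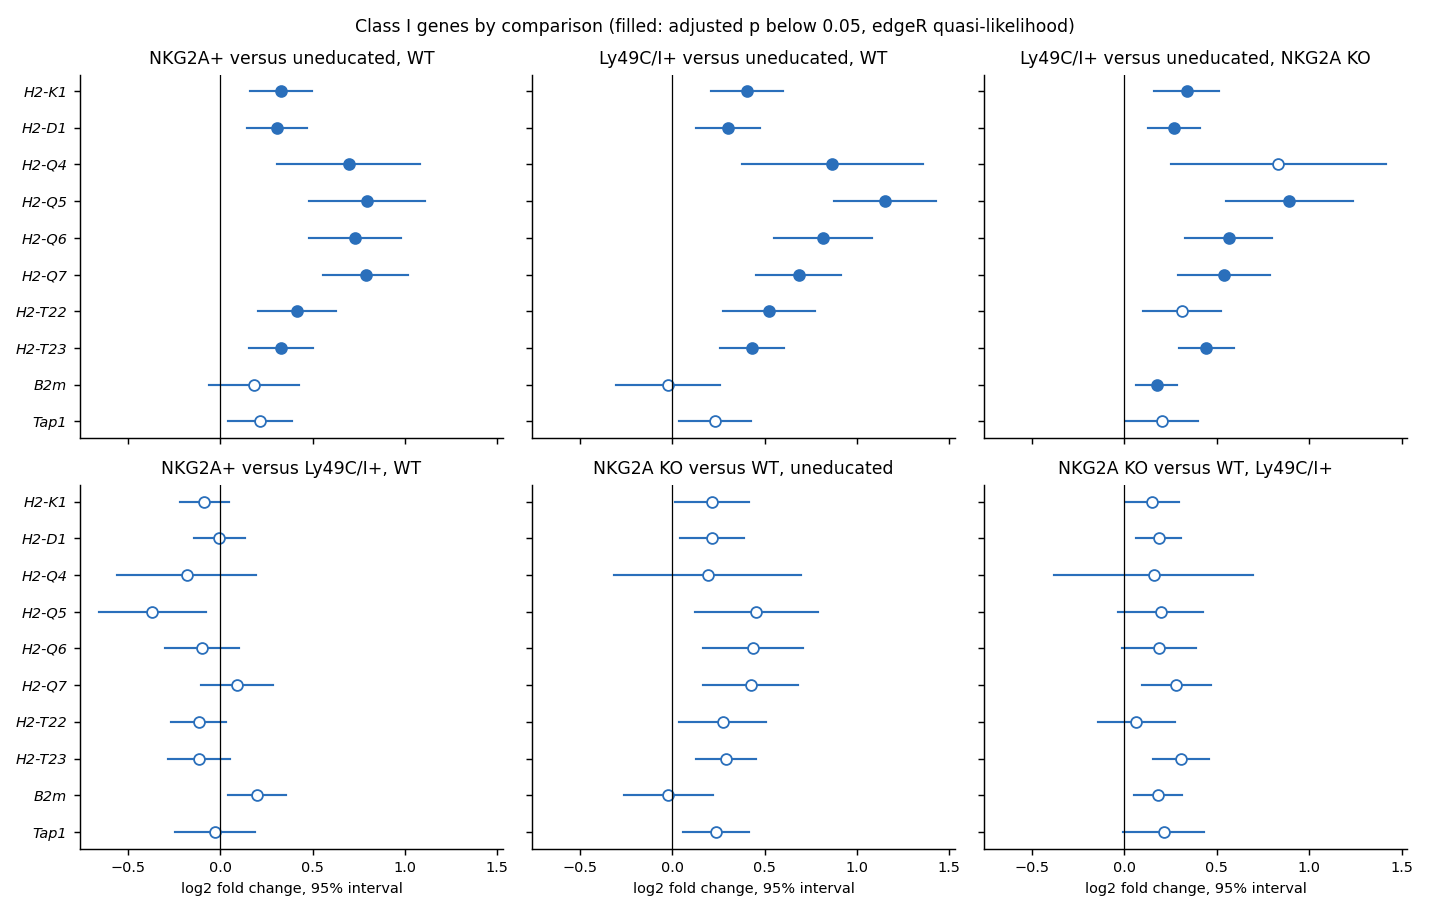
Log2 fold change of each gene with its 95% interval in 6 comparisons; filled points have an adjusted p below 0.05. The 8 heavy chain genes are filled in both WT comparisons with uneducated cells, and no gene is filled between the educated populations or between genotypes.

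The direct test of NKG2A+ against WT Ly49C/I+ cells called none of the 10 genes by edgeR's quasi-likelihood test, where 2.73% of the 9308 genes tested were called. At an unadjusted p below 0.05 there were 2 of the 10, and 18.4% of all genes. DESeq2 and edgeR's likelihood ratio test also called 0 of the 10. The pair were H2-Q5, lower in NKG2A+ cells with a log2 difference of -0.37 (95% interval -0.66 to -0.08, edgeR adjusted p = 0.187), and B2m, higher with a log2 difference of 0.20 (0.04 to 0.35, edgeR adjusted p = 0.191). For the receptor ligands, H2-K1 differed by -0.09 (-0.22 to 0.05) and H2-T23 by -0.11 (-0.29 to 0.06) on the log2 scale. The H2-T23 interval reaches nearly the size of that gene's log2 fold change of 0.33 between NKG2A+ and uneducated cells. The test thus cannot show that the educated populations are equal.

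In NKG2A KO mice the contrast of Ly49C/I+ with uneducated cells called 7 of the 10 genes higher, H2-K1, H2-D1, H2-Q5, H2-Q6, H2-Q7, H2-T23 and B2m. Of the 9299 genes tested 16.3% were called and 7.34% were called higher. The uneducated and Ly49C/I+ cells compared here were both NKG2A- by the sort. Groups did not overlap for H2-Q6 and H2-T23, as for 2.32% of genes in that direction.

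H2-T23 showed the clearest separation, with 471 to 632 CPM in the KO uneducated libraries (median 514). The 5 KO Ly49C/I+ libraries had 785, 739, 705, 744 and 666 CPM, all above that range. The log2 fold change was 0.44 ± 0.08 (edgeR adjusted p = 0.00135). H2-K1 ran from 3773 to 5523 CPM in KO uneducated libraries (median 4749), and the 5 Ly49C/I+ libraries had 6113, 6417, 5756, 5960 and 5381 CPM. All but the last of these lay above the uneducated range, for a log2 fold change of 0.34 ± 0.09 (edgeR adjusted p = 0.0176).

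H2-D1 ran from 6443 to 8747 CPM in KO uneducated libraries (median 7238), and its 5 Ly49C/I+ libraries had 9024, 9113, 8968, 8860 and 8403 CPM, for a log2 fold change of 0.27 ± 0.07 (edgeR adjusted p = 0.0186, and 0.0532 with no filter on low counts, the highest over all alternatives). H2-Q5 ran from 75.3 to 185 CPM in KO uneducated libraries (median 118), against 276, 253, 201, 201 and 179 CPM, for a log2 fold change of 0.89 ± 0.18 (edgeR adjusted p = 0.00302). In both genes a single Ly49C/I+ library, the last given, fell within the uneducated range. H2-Q6 rose by 0.56 ± 0.12 (edgeR adjusted p = 0.00505) and H2-Q7 by 0.54 ± 0.13 (edgeR adjusted p = 0.00953) on the log2 scale.

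H2-Q4 had a log2 fold change of 0.83 ± 0.30 (edgeR adjusted p = 0.0632) and H2-T22 of 0.31 ± 0.11 (edgeR adjusted p = 0.0588). For H2-Q4, KO uneducated library 4 at 17.5 CPM stood above the other 7, of which the highest was at 10.2 CPM, and without it the gene was called (log2 fold change 1.04, edgeR adjusted p = 0.0147, with up to 0.164 over all alternatives). H2-T22 was called without KO uneducated library 7 or without KO Ly49C/I+ library 7 (edgeR adjusted p 0.0299 and 0.0354, within 0.0161 to 0.352 over all alternatives). Tap1 had a log2 fold change of 0.20 ± 0.10 (edgeR adjusted p = 0.173) and was called without KO uneducated library 6 (0.27, edgeR adjusted p = 0.0398, with up to 0.489 over all alternatives).

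B2m varied little in these mice, from 4176 to 5191 CPM in uneducated libraries (median 4510), with 5225, 4920, 5426, 5162 and 5243 CPM in the Ly49C/I+ libraries. Its rise of 0.17 ± 0.06 on the log2 scale was small and near the threshold (edgeR adjusted p = 0.0461). Leaving out any of 10 of the 13 libraries (uneducated 1, 2, 3, 4, 5 or 8, or Ly49C/I+ 4, 6, 7 or 8) moved the edgeR adjusted p to between 0.0535 and 0.105 (0.0131 to 0.305 over all alternatives).

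Between genotypes, no gene was called in either population by edgeR's quasi-likelihood test, and none of the 10 was among the genes at an adjusted p below 0.05 (0% of 9288 genes tested in uneducated and 0% of 9344 in Ly49C/I+ cells). In uneducated cells 8 of the 10 had an unadjusted p below 0.05, where 6.66% of all genes did. DESeq2 and edgeR's likelihood ratio test called 1 gene each, none of the 10. In Ly49C/I+ cells 4 of the 10 had an unadjusted p below 0.05, where 10.7% of all genes did, while DESeq2 called 84 genes, 1 of the 10 among them, and the likelihood ratio test called 62 and none of the 10. The 8 heavy chain genes moved together across libraries, so such counts are not separate observations.

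The direction was shared by most members. In uneducated cells 9 of 10 log2 differences, KO minus WT, were above 0 (47.7% of all genes), with a median of 0.25 against -0.01 over all genes tested. In Ly49C/I+ cells 10 of 10 were above 0 (50.6% of all genes), with a median of 0.19 against 0.00 over all genes. H2-T23, the gene of the ligand of the missing receptor, had the lowest p of the 10 in each. In uneducated cells its mean was 528 ± 53.0 CPM (n = 8) in KO and 433 ± 49.97 CPM (n = 9) in WT mice, a log2 difference of 0.29 ± 0.08 with an edgeR adjusted p of 0.507. In Ly49C/I+ cells it was 728 ± 44.6 CPM (n = 5) in KO and 588 ± 55.8 CPM (n = 6) in WT mice, a log2 difference of 0.31 ± 0.08 with an edgeR adjusted p of 0.204. The second difference passed with DESeq2 (0.30, DESeq2 adjusted p = 0.0258), and under the other alternatives its adjusted p reached up to 0.778. The labels give no batch, so batch and genotype cannot be told apart.

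Whether the Ly49C/I+ effect itself differed between genotypes was tested as an interaction over the 4 groups. By edgeR's quasi-likelihood test 0 of 9322 genes were called (414 at an unadjusted p below 0.05), DESeq2 called 1 gene and the likelihood ratio test 0, and none of the 10 was called by any of these. The genes at an unadjusted p below 0.05 were 4.44% of those tested. For H2-T23 the interaction was 0.00 with a 95% interval from -0.23 to 0.23 on the log2 scale. For H2-K1 it was -0.08 (-0.36 to 0.20) and for H2-Q5 it was -0.27 (-0.74 to 0.20).

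The wider pathway was read from lists of genes chosen by name, also with earlier results of these data known. Of 19 further class I heavy chain genes 16 had a row in the files and 7 passed the filter in the comparisons with uneducated cells. H2-M3, which presents formylated peptides, and H2-K2 were higher in all of these comparisons, with log2 fold changes of 0.37 and 0.70 in NKG2A+ cells, 0.42 and 0.96 in WT Ly49C/I+ cells and 0.49 and 0.92 in KO Ly49C/I+ cells. H2-T10, a close relative of H2-T22, was also higher in NKG2A+ cells (0.88, edgeR adjusted p = 0.0209) and in KO Ly49C/I+ cells (0.79, edgeR adjusted p = 0.0145). Of the 7, 3 were called higher in NKG2A+, 2 in WT Ly49C/I+ and 3 in KO Ly49C/I+ cells, where 7.47%, 4.25% and 7.34% of all genes were. None of the 7 was called lower, where 7.56%, 5.05% and 8.99% of all genes were.

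The peptide loading list holds the second transporter subunit, tapasin, chaperones of the endoplasmic reticulum and the immunoproteasome, and most of it did not pass the test. Of its 12 genes 0 were called higher and 3 lower in each comparison of educated with uneducated cells, where 7.56% (NKG2A+), 5.05% (WT Ly49C/I+) and 8.99% (KO Ly49C/I+) of all genes were called lower, with medians of -0.11 (NKG2A+), -0.12 (WT Ly49C/I+) and -0.06 (KO Ly49C/I+) against 0.01, 0.00 and 0.02 over all genes. Calr, the chaperone calreticulin, fell by 0.61, 0.76 and 0.76 on the log2 scale (edgeR adjusted p = 9.7e-04, 0.00317 and 0.00139). Pdia3, a disulphide isomerase of the loading complex, fell by 0.43, 0.56 and 0.53 (edgeR adjusted p = 0.0129, 0.0104 and 0.00456). Canx, the chaperone calnexin, fell by 0.54 in WT and by 0.43 in KO Ly49C/I+ cells, and the immunoproteasome subunit Psmb8 fell by 0.22 in NKG2A+ cells. The genes that fell are general chaperones of secreted proteins as well, apart from Psmb8. Tap2, Tapbp, Psmb9 and Psmb10 had log2 fold changes between -0.18 and 0.12 in these comparisons, and none passed the test. Tapbpl, a relative of tapasin, had log2 fold changes of 0.34, 0.40 and 0.23 (edgeR adjusted p = 0.0667, 0.0707 and 0.161).

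**Figure D5:**
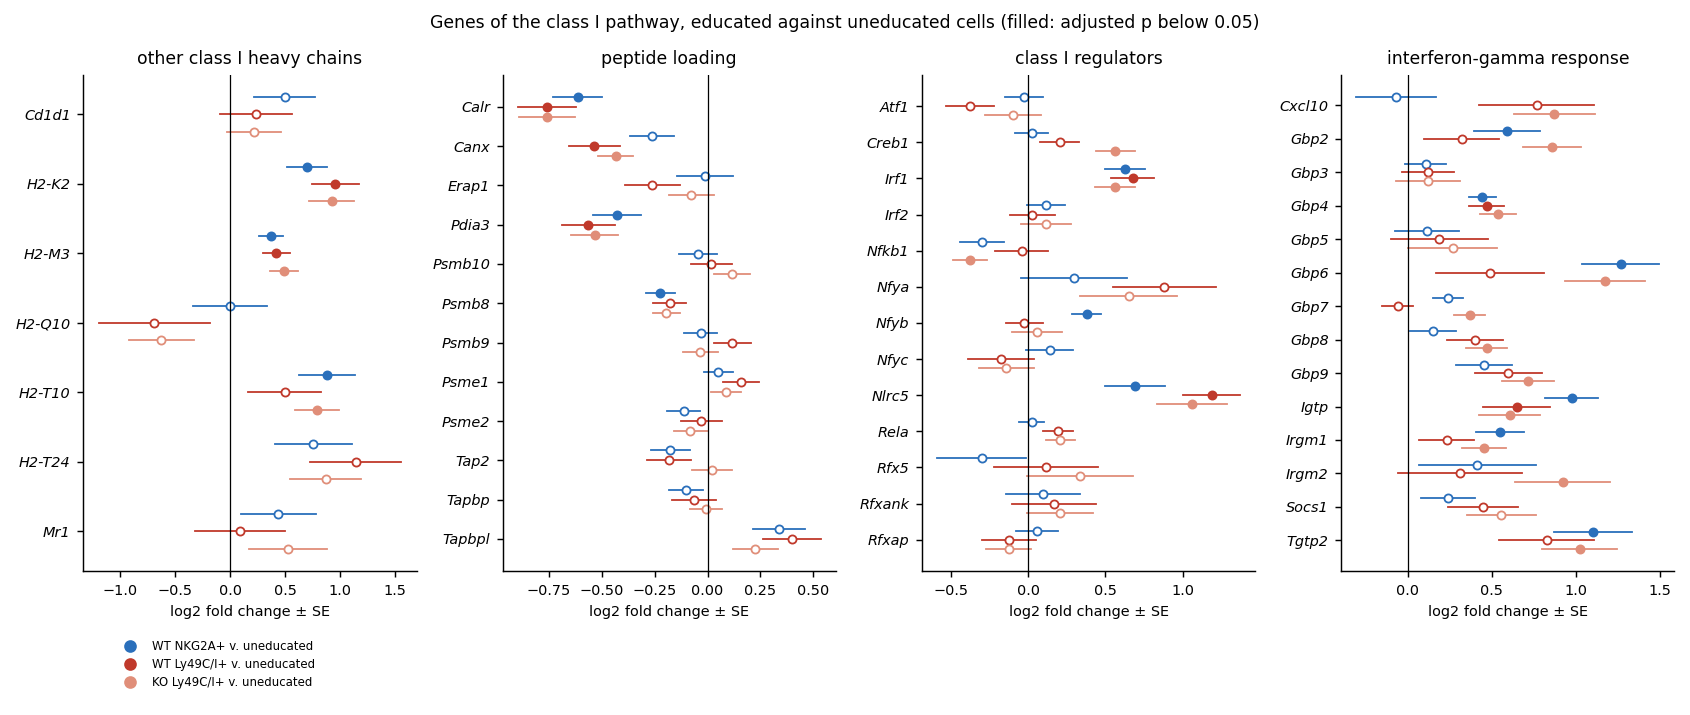
Log2 fold changes (± SE) of genes of 4 lists in educated against uneducated cells of the same genotype; filled points have an adjusted p below 0.05. Nlrc5 and Irf1 lie to the right of 0 in all 3 comparisons, and Calr and Pdia3 lie to the left.

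Among 13 regulators of class I genes, 3 were higher in NKG2A+ cells, 2 in WT Ly49C/I+ cells and 3 in KO Ly49C/I+ cells, and 1 was lower, in KO Ly49C/I+ cells. Of all genes tested 7.47%, 4.25% and 7.34% were called higher in the same order, and 8.99% were called lower in KO Ly49C/I+ cells. Nlrc5, the class I transactivator, ran from 40.1 to 73.5 CPM in WT uneducated, from 42.5 to 125 in NKG2A+ and from 77.5 to 196 in WT Ly49C/I+ libraries. The WT Ly49C/I+ libraries lay above all WT uneducated ones. Its log2 fold change was 0.69 ± 0.19 in NKG2A+ cells (edgeR adjusted p = 0.0177), 1.19 ± 0.18 in WT Ly49C/I+ cells (edgeR adjusted p = 0.00107) and 1.06 ± 0.23 in KO Ly49C/I+ cells (edgeR adjusted p = 0.00524).

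Irf1, an interferon regulatory factor, rose by 0.63 ± 0.13, 0.68 ± 0.14 and 0.56 ± 0.13 on the log2 scale in the same order (edgeR adjusted p = 0.00193, 0.00692 and 0.00821). Nfyb, a subunit of the factor that binds CCAAT, was higher in NKG2A+ cells (0.38, edgeR adjusted p = 0.00772). In KO Ly49C/I+ cells Creb1 was higher (0.56, edgeR adjusted p = 0.00647) and Nfkb1 lower (-0.37, edgeR adjusted p = 0.0298). The subunits of the RFX complex, Rfx5, Rfxank and Rfxap, passed the test in none of these comparisons.

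Of 14 interferon-gamma response genes that passed the filter, 6 were higher in NKG2A+ cells, 2 in WT Ly49C/I+ cells and 11 in KO Ly49C/I+ cells, and none was lower, where 7.47%, 4.25% and 7.34% of all genes were called higher. The GTPases Gbp4 and Igtp were higher in all of these. Gbp4 rose by 0.44, 0.47 and 0.54 and Igtp by 0.98, 0.65 and 0.61 on the log2 scale. The difference between these counts was not tested.

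Of the 6 MHC class II genes tested, 3 were called lower in NKG2A+, 3 in WT Ly49C/I+ and 4 in KO Ly49C/I+ cells and none was called higher, where 7.56%, 5.05% and 8.99% of all genes were called lower. Cd74, the invariant chain, fell by 1.18 in NKG2A+, 1.84 in WT Ly49C/I+ and 2.08 in KO Ly49C/I+ cells on the log2 scale, and H2-Ab1 fell by 1.62, 1.68 and 2.59. H2-DMa, part of the class II peptide editor, had log2 fold changes of 0.30, -0.13 and -0.09 and did not pass. The summed level of 10 class II genes ran from 378 to 1026 CPM in WT uneducated, from 76.6 to 598 in NKG2A+ and from 60.9 to 383 CPM in WT Ly49C/I+ libraries.

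Other cell types could add class I reads, since nearly all nucleated cells carry these genes. Summed levels of 9 NK cell markers were between 16830 and 23790 CPM in the 37 libraries, and none of the 9 was at 0 in all libraries of a group. Within the sum, markers moved in both directions: 5, 2 and 5 of the 9 were called higher and 2, 2 and 2 lower in NKG2A+, WT Ly49C/I+ and KO Ly49C/I+ cells. In the same order, 7.47%, 4.25% and 7.34% of all genes tested were called higher and 7.56%, 5.05% and 8.99% lower. In NKG2A+ cells the receptor genes Ncr1 (0.64), Klrb1c (0.62) and Klrk1 (0.71) were higher on the log2 scale and the cytotoxic granule genes Gzmb (-0.68) and Prf1 (-0.69) were lower. Summed B cell markers reached at most 6.08 CPM and trophoblast markers at most 3.39 CPM, with 1 to 2 of 4 and 1 to 3 of 4 genes at 0 in all libraries of a group. Summed levels of 8 T cell markers had a median of 456 CPM in WT uneducated, 510 in NKG2A+ and 589 in WT Ly49C/I+ libraries, and 458 and 618 CPM in KO uneducated and KO Ly49C/I+ libraries. They were called higher for 3 of 5 tested genes in NKG2A+ cells and for 1 of 4 in Ly49C/I+ cells of each genotype. Of all genes tested, 7.47%, 4.25% and 7.34% were called higher in NKG2A+, WT Ly49C/I+ and KO Ly49C/I+ cells. Trbc1 held most of the T cell sum, with means of 306 CPM in WT uneducated and 374 in NKG2A+ libraries. Between these groups the means of Cd3e and Cd3d rose from 4.07 to 14.5 and from 11.5 to 26.2 CPM. Those of Cd3g and Trac fell from 81.6 to 74.3 and from 34.4 to 29.0 CPM. The 4 erythroid genes summed to a median of 561 CPM in WT uneducated, 1342 in NKG2A+ and 1090 in WT Ly49C/I+ libraries, and of 576 in KO uneducated and 742 in KO Ly49C/I+ libraries. Myeloid markers overlapped between groups (26.3 to 129 CPM in WT uneducated, 4.14 to 292 in NKG2A+, 12.4 to 381 in WT Ly49C/I+, 22.6 to 89.7 in KO uneducated and 0.17 to 127 in KO Ly49C/I+ libraries). Summed endothelial markers ran from 219 to 343 CPM in WT uneducated, from 122 to 201 in NKG2A+ and from 142 to 218 in WT Ly49C/I+ libraries, and from 175 to 340 and 130 to 198 in KO uneducated and KO Ly49C/I+ libraries. Epithelial markers ran from 200 to 283, 67.9 to 191, 96.0 to 237, 140 to 268 and 136 to 275 CPM in the same order, so they were apart from WT uneducated libraries in NKG2A+ cells and overlapped in the other comparisons. The endothelial sum rested on Pecam1, with a mean of 274 CPM in WT uneducated libraries. Cdh5, Kdr and Tek had means of 0.10, 0.12 and 0.36 CPM there. The epithelial sum rested on Cdh1 and Epcam, with means of 170 and 65.5 CPM in WT uneducated and 104 and 26.8 in NKG2A+ libraries. Between these groups the mean of Krt18 rose from 4.60 to 9.30 CPM and that of Krt8 from 4.88 to 5.14. Stromal markers had medians of 35.0, 7.26 and 9.24 CPM in WT uneducated, NKG2A+ and WT Ly49C/I+ libraries. Their medians were 17.4 and 2.53 CPM in KO uneducated and KO Ly49C/I+ libraries. In NKG2A+ libraries the stromal sum reached 894 CPM. It was mostly Prl8a2, which varied widely there, with a mean of 193 ± 312 CPM (SD, n = 9), a median of 7.26 and a maximum of 889 CPM. The part of these differences in the class I results was not tested. In bulk RNA, fewer cells with a high level and less RNA in each cell cannot be told apart.

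The receptors that defined the sort were read in the same libraries. Klrc1, which encodes NKG2A, ran from 494 to 760 CPM in NKG2A+ libraries and was at most 13.8 CPM in all others. The KO groups were sorted as NKG2A- cells, so their low Klrc1 does not check the genotype. Klra9, which encodes Ly49I, was higher in Ly49C/I+ cells by 3.21 (WT) and 3.45 (KO) on the log2 scale, while Klra3, which encodes Ly49C, was lower by 1.32 and 0.64. Ly49 genes are also near copies of each other, so reads may be lost or split among them.

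Within groups, heavy chain genes rose and fell together from library to library. Over the 37 libraries, Pearson's r of deviations from the group mean on the log2 scale ranged from 0.14 to 0.91 over the 28 pairs of heavy chain genes, with a median of 0.74. B2m did not follow them (r from -0.31 to 0.13), and Tap1 did so in part (-0.09 to 0.52). Among the regulators, Irf1 had r from 0.33 to 0.79 with the 8 heavy chains and Nlrc5 from 0.02 to 0.43. The points share library preparation and depth, and the Q region genes also share stretches of sequence, so these values are a description.

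The genes most like H2-K1 over the 37 libraries, of 9277 searched, were Ier5 (Pearson's r = 0.94), Junb (0.94), Tbx21 (0.93), Ctsw (0.93) and Rasal3 (0.92). Ier5 and Junb are immediate early genes, Tbx21 encodes the NK cell factor T-bet and Ctsw a granule protease. Those most like H2-T23 were Irf7 (0.89), Ier5 (0.88), Rasal3 (0.87), Arrdc1 (0.87) and Tbx21 (0.87). B2m had another set, Eif1 (0.84), Crip1 (0.83), Sh3glb1 (0.80), Sec62 (0.77) and Smc6 (0.76). Tap1 was nearest to Il10ra (0.78), Rsad2 (0.73), Tor3a (0.72), Ccnd3 (0.70) and Myo1f (0.69). Part of each r comes from the differences between groups, and within groups the r of H2-K1 with Ier5 was 0.90 and that of H2-T23 with Irf7 was 0.74.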

How the data were processed

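Total RNA of 37 samples of sorted uNK cells was amplified as full-length cDNA without molecular identifiers. Per the labels, the authors used Trim Galore 0.5.0 and STAR 2.7.1 on GRCm38 and deposited raw counts of reads per Ensembl gene. Their later GC and length correction was not in these counts. The program that counted reads is not named in those sources. In each file 5 summary lines name no gene and were left out: 2.69% to 6.83% of reads had no feature, 4.04% to 4.60% were ambiguous and 11.3% to 13.8% had no unique position. Symbols for 52093 of 53700 identifiers, positions and transcripts came from GENCODE M21.

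CPM in the text used TMM factors over all 37 libraries. Tests used edgeR 4.0.16 in R 4.3.3 (quasi-likelihood, TMM, a minimum of 5 CPM in a fraction of 0.5 or more of compared libraries, only the compared groups, Benjamini-Hochberg, threshold 0.05), and the code was tested on simulated data. Each SE was the size of the log2 fold change divided by the root of its F statistic, and 95% intervals were the log2 fold change ± 1.96 SE. These normal intervals are shorter than the F test implies, so they can exclude 0 where its unadjusted p is above 0.05. The WT NKG2A+ comparison used all 9 and 9 libraries, since the study's legend gives those numbers. Alternatives were DESeq2 1.42.0, edgeR's likelihood ratio test, RLE factors, no filter, spline offsets for GC content and length (5 degrees of freedom), all groups in 1 fit, the replicate number as a block, each library left out, and 8 and 8 libraries. The numbers 1, 2, 4, 5, 7 and 8 of WT Ly49C/I+ libraries follow their description lines, from which some titles differ. Genes named are the 10 members in each comparison, genes of the listed pathways by role, and for 4 members the 5 genes with the highest r of log2(CPM + 1). Members and lists were chosen with earlier results of these data known. Reads are not independent molecules. No 2 libraries of the same group agreed within sampling noise, and libraries of different groups were not compared in this way. Some listed genes are not reported here and were left out of the counts and sums of their lists.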

Additional observations from a re-analysis of the deposited data

Results flagged for a closer look

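Of 50 combinations of a gene and a group, 4 held a library whose distance from its nearest neighbour passed Dixon's 95% limit, and chance gives about 1 in 20. B2m was at 7953 CPM in WT uneducated library 5, with the next library at 4930 CPM. This library had 13990 genes detected, the fewest of its group, and it also had the lowest H2-T22. B2m was at 6797 CPM in NKG2A+ library 4, with the next at 5691 CPM. H2-Q4 was at 17.5 CPM in NKG2A KO uneducated library 4, against 10.2 CPM in the next. H2-T23 was at 695 CPM in WT Ly49C/I+ library 7, against 593 CPM in the next. What set these libraries apart was not tested.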

How the results depend on the processing

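The calls of the 8 heavy chain genes in NKG2A+ cells held under 26 of 26 alternatives, and those of H2-Q5, H2-Q6, H2-Q7 and H2-T23 in WT Ly49C/I+ cells under 22 of 22. With no filter on low counts, genes called in WT Ly49C/I+ against uneducated cells fell from 864 to 451 (members 8 to 4), in NKG2A+ against Ly49C/I+ cells from 254 to 104 and in KO Ly49C/I+ cells from 1519 to 889 (members 7 to 5), with more genes tested in each. With all groups in 1 fit, 1538 genes were called in WT Ly49C/I+ cells and 21 between genotypes in Ly49C/I+ cells. DESeq2 called 558 genes between the educated populations, 1 and 84 between genotypes in uneducated and Ly49C/I+ cells (1 member, H2-T23) and 1 for the interaction, and the likelihood ratio test called 442, 1, 62 and 0. Spline offsets gave 135 genes between the educated populations, 50 of them higher in NKG2A+ cells, against 122 of 254. The cause was not tested.

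Leaving out 1 library gave 1118 to 1687 genes in NKG2A+ against uneducated cells (members 8 to 9) and 461 to 1234 in WT Ly49C/I+ cells (members 5 to 8). Here 461 genes and 5 members were left without Ly49C/I+ library 7, and the genes were 573, 534, 575 and 564 without uneducated library 1, 3 or 4 or Ly49C/I+ library 5. Between the educated populations it gave 147 (without Ly49C/I+ library 7) to 306 genes, with 168, 163, 154 and 155 without NKG2A+ library 2 or 8 or Ly49C/I+ library 2 or 5. In KO Ly49C/I+ cells it gave 967 (without Ly49C/I+ library 4) to 1763 genes, and between genotypes in Ly49C/I+ cells 0 to 15 (without WT library 1) and 2 without KO library 8.

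Log2 differences near 0 changed sign. Spline offsets gave B2m 0.12 in WT Ly49C/I+ cells and 0.048 between genotypes in uneducated cells, H2-D1 0.034 and Tap1 0.045 between the educated populations, and interactions of 0.0025 for H2-K1, 0.048 for H2-D1, 0.042 for H2-Q4 and 0.035 for Tap1. H2-D1 between the educated populations was 0.0073 with no filter. Leaving out 1 library gave -0.075 to 0.119 for B2m in WT Ly49C/I+ cells, -0.039 to 0.041 for H2-D1 and -0.089 to 0.036 for Tap1 between the educated populations, -0.068 to 0.106 for B2m and -0.017 to 0.276 for H2-Q4 between genotypes in uneducated cells, and interactions of -0.026 to 0.030 for H2-T23 and -0.165 to 0.085 for H2-Q4.

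The replicate numbers were not taken as pairs, since the study's methods name no pairing, so the main tests ignore any pairing there was. In none of 6 comparisons did every same-numbered pair correlate above 0.1 (medians 0.01 to 0.13). That rule cannot exclude pairing. The hint of pairing was strongest in WT Ly49C/I+ against uneducated cells, where 5 of 6 libraries correlated best with their own number (r from 0.07 to 0.19). It was 4 of 9 in NKG2A+ against uneducated cells, 3 of 6 between the educated populations and 2 of 5 in KO Ly49C/I+ cells. Between genotypes, where equal numbers cannot be the same mouse, it was 1 of 8 in uneducated and 1 of 4 in Ly49C/I+ cells. With the replicate number as a block, 759 genes were called in KO Ly49C/I+ cells, 1004 in WT Ly49C/I+ cells, 1418 in NKG2A+ cells and 301 between the educated populations (1 member, H2-Q5, at -0.56 with an edgeR adjusted p of 0.0443, against up to 0.296 under the other alternatives). In KO Ly49C/I+ cells the block gave H2-K1 0.21 and H2-D1 0.18, both still called, and it gave interactions of -0.27 for H2-K1 and -0.62 for H2-Q5, neither called. The block gave B2m 0.023 between genotypes in uneducated cells, H2-T22 -0.034 between genotypes in Ly49C/I+ cells and an interaction of -0.12 for H2-T23.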
